A study of Drosophila melanogaster with 6 samples.

Results

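The regions described here are Gcn5 sites on the autosomal arms 2L, 3L and 3R of Kc cells that were called after CP190 RNAi and not in the control library. Autosomal sequence outside these 3 arms, such as 2R and chromosome 4, was not part of the choice. Of the 4228 peaks in the whole CP190 RNAi list, 2274 lay on the 3 arms. Peaks of 3 Gcn5 chromatin immunoprecipitation (ChIP-seq) lists were pooled and merged into union regions wherever they overlapped by at least 1 bp. Members were chosen by the peak calls of both Kc libraries: a region was taken when it held a Kc CP190 RNAi peak and no Kc GFP RNAi peak. There were 656 members among 4608 union regions. Of these, 157 also held an S2 peak and 499 did not.

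Kc and S2 are cell lines from Drosophila melanogaster embryos. The Kc control received double-stranded RNA against GFP, a sequence foreign to the fly, the Kc knockdown received double-stranded RNA against CP190, and the S2 line received double-stranded RNA against GFP, with 90 µg used for 6000000 cells in each case. No further allele or transgene is given, and the efficiency of the knockdown cannot be read from peak lists. Each condition is represented by 1 library and 1 peak list, so no difference below has a replicate check and no p-value is given. Intervals are exact 95% binomial intervals for shares of regions and cover counting error only, since regions of 1 library are not replicates.

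Gcn5 is the acetyltransferase of SAGA and ATAC, coactivator complexes that acetylate histone H3 at promoters and enhancers of active genes. CP190 carries zinc fingers and a BTB domain. It joins insulator proteins at domain borders and also occupies many promoters, where chromatin is open. The series asks how far Gcn5 depends on CP190 for its place on chromatin. Sites that appear in the knockdown list alone are the part of that comparison that runs against a loss.

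On the 3 arms the control list held 2873 peaks, the CP190 RNAi list 2274 and the S2 list 3134. They covered 4.62, 3.75 and 4.91 Mb. Read depth is unknown for all 3 lists. Each peak carries the authors' own score from the peak caller, and the lowest on these arms was 50.08 in the control list, 50.03 in the S2 list and no lower than 50 after CP190 RNAi. Scores were used to rank peaks within 1 list, apart from an alternative that set the same score threshold in all lists, and Gcn5 may be present at a site where no peak was called. Positions are on the dm3 build and 1-based. No dm3 genome or annotation was used here, so sites are named by position and no gene or sequence is given for them.

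The members were 29.7% of the 2210 union regions with a CP190 RNAi peak (27.8 to 31.6%) and 14.2% of all union regions. The rule fixes both shares, and they are given as a description. With CP190 RNAi peaks at a score of 100 or more and the other lists whole, there were 206 members, or 16.5%. The other 1554 regions with a CP190 RNAi peak also held a control peak and are called kept regions below. A further 1266 regions held a control peak and no CP190 RNAi peak. Nearly all members were simple, with 2 regions holding a pair of CP190 RNAi peaks and 2 holding a pair of S2 peaks. In the CP190 RNAi list 676 peaks had no control peak over them, and 18 of these were not members because an S2 peak joined them to a control peak nearby.

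The limit of the rule ran through a few near misses. The 3 members closest to a control peak lay 37, 49 and 68 bp from it. They were 3L 20390708 to 20398845 (CP190 RNAi score 55.56), 3R 9085584 to 9086423 (score 62.62) and 2L 12096081 to 12097137 (score 54.23). Just outside the rule, the CP190 RNAi peak at 2L 10403243 to 10404749 overlapped a control peak by 4 bp and had a score of 98.52. The peaks at 3L 1329358 to 1330939 and 3L 10850441 to 10851473 overlapped one by 30 and 40 bp, with scores of 153.59 and 92.41. On the member side, 13 of 656 had a control peak within 200 bp (1.98%, 1.06 to 3.36%). On the other side, asking for a 50% reciprocal overlap of the Kc peaks, counted on peaks, raised the number of members to 759.

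Most members were weak peaks of their list. Their median CP190 RNAi score was 79.7 with quartiles of 60.6 and 109, against 132 for kept regions with quartiles of 86.5 and 201. The lowest and the second score quintile of the list held 421 of the 656 members (64.2%, 60.4 to 67.9%). Members made up 231 of the 441 regions in the lowest quintile (52.4%, 47.6 to 57.1%). That share fell at each step, to 130 of 434 in the third (30.0%, 25.7 to 34.5%) and 26 of 454 in the highest (5.73%, 3.77 to 8.28%). The highest quintile began at a score of 190. A score of 100 or more was reached by 206 members (31.4%, 27.9 to 35.1%) and by 1046 kept regions (67.3%, 64.9 to 69.6%). The score comes from a library that the rule used, so these values describe the members and were not tested.

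**Figure D1:**
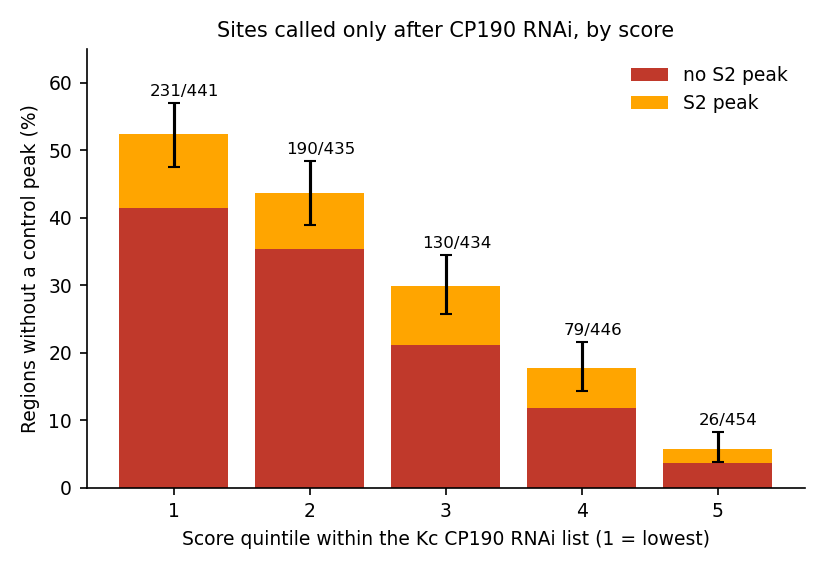
Share of Kc CP190 RNAi regions on 2L, 3L and 3R without a control peak (percent, vertical axis) in each score quintile of the CP190 RNAi list (horizontal axis, 1 is the lowest). Bars are split by S2 peak, error bars are exact 95% binomial intervals of the whole bar, and the numbers are members over regions, which go from 231 of 441 down to 26 of 454.

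A small group of members was strong. Among those without an S2 peak, the site at 3R 7779521 to 7783003 stood first. It was 3483 bp wide, and its score of 937.88 ranked 5 among the 2274 CP190 RNAi peaks on the arms. It was not isolated from control binding. A control peak of 3479 bp lay 713 bp away, at 3R 7783717 to 7787195, with a control score of 172.76, which was at percentile 59.2 of the control list. The CP190 RNAi peak over that neighbour, at 3R 7783555 to 7787795, had a score of 733.16 and ranked 9. A pair of adjoining wide peaks thus stood among the 10 strongest of the knockdown list, of which the control list held 1, at a middle rank, and the S2 list held neither. The nearest S2 peak was 5182 bp from the member.

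The other strong members without an S2 peak had scores well below that. The next, 3R 1192730 to 1194713, scored 354.95 and ranked 109, and a control peak of low score (84.87) lay 2092 bp away. The CP190 RNAi peak over that control peak had a score of 228.32. The third, 2L 18943057 to 18945493, scored 352.54, ranked 110 and lay 2850 bp from a control peak that itself had no CP190 RNAi peak. Here the control and the knockdown list each held a peak that the other lacked, a few kilobases apart.

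The same alternation was seen at 3R 5934596 to 5936585. That member had a score of 281.55, and its nearest control peak, 6973 bp away with a control score of 298.78, had no CP190 RNAi peak. At 3R 20544647 to 20545952 the member scored 228.69, and a control peak 845 bp away, with a control score of 146.73, was likewise not called after CP190 RNAi. Of the 10 strongest members without an S2 peak, 5 had such a control peak as their nearest and 5 had a kept one. Over all 656 members the nearest was a kept one for 421 (64.2%) and not for 235. Of all 2820 control regions 1554 were kept (55.1%), so 10 sites are too few to set these apart. At 3R 20875202 to 20876702 the member scored 288.97, and the kept neighbour 4719 bp away had a CP190 RNAi score of 50.81, near the lowest of the list.

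On 2L, 3 of these 10 sites lay in the window from 13000001 to 14000000, which held 14 members. They spanned 13394468 to 13396833 (score 245.97), 13570906 to 13573652 (score 222.33) and 13613553 to 13616288 (score 218.69). All 3 lay more than 10 kb from a control peak, at 11274, 19795 and 23486 bp, and were 2366 to 2747 bp wide. The remaining one, 3L 1334365 to 1336928, scored 256.35 and had a control peak 2116 bp away. That control peak counted as kept only through a CP190 RNAi peak that overlapped it by 30 bp.

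Members with an S2 peak had their own strongest sites. The first lay at 3L 7856053 to 7861322, was 5270 bp wide and had a CP190 RNAi score of 395.79, rank 75. An S2 peak of 7395 bp overlapped most of it, with an S2 score of 484.89 at percentile 81.6 of the S2 list. The nearest control peak was 22016 bp away. The second, at 2L 22353455 to 22355338 near the centromeric end of the arm, had a score of 366.21 and an S2 score of 268.93, and the nearest control peak was 72537 bp away. Both sites were thus called in the S2 control and in the Kc knockdown, and neither was called in the Kc control.

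The next in order were 3R 17485867 to 17489036 (score 313.93), 3R 8194215 to 8198148 (score 262.69), 3L 20770815 to 20772441 (score 241.08) and 3R 4180722 to 4184525 (score 234.64). Their S2 scores were 179.13, 194.98, 108.91 and 86.31. The 10 strongest members with an S2 peak went down to a score of 178.66, at 3L 11485514 to 11487206. Their nearest control peaks were 3106 to 72537 bp away, so none lay within 1 kb. Among all members with an S2 peak 20 of 157 had one that close (12.7%), so 10 sites are too few to differ from that share. The highest S2 scores among the 10 were those of the ninth and the last, 621.29 at 3R 2899639 to 2904215 (score 196.82) and 566.96 at the 3L site just named. The other 8 had S2 scores of 86.31 to 484.89.

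Members had a lower median width than kept regions as a whole and a higher one in the upper score quintiles. Their median CP190 RNAi peak width was 1278 bp (quartiles 1059 and 1721 bp), against 1402 bp (1121 and 1921 bp) for kept regions. Within the lowest score quintile the medians were close, at 1143 bp for members and 1180 bp for kept regions. In the third quintile they were 1432 and 1281 bp, in the fourth 1592 and 1411 bp, and in the highest 2286 and 1888 bp. The order of the medians therefore changed with score, but their 95% intervals overlapped in every quintile, as did the quartiles. For members and kept regions the intervals were 1318 to 1594 and 1219 to 1345 bp in the third quintile. In the fourth they were 1410 to 1747 and 1347 to 1478 bp. In the highest, with 26 members, they were 1643 to 3033 and 1761 to 1987 bp. With CP190 RNAi peaks restricted to a score of 100 or more, the members' median turned out the larger, by 20.0 bp. The 95% interval of the members' median there was 1430 to 1693 bp. For the regions with a control peak and no CP190 RNAi peak, the control peaks had a median of 1122 bp (1001 and 1358 bp), although widths in different lists also depend on each library.

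**Figure D2:**
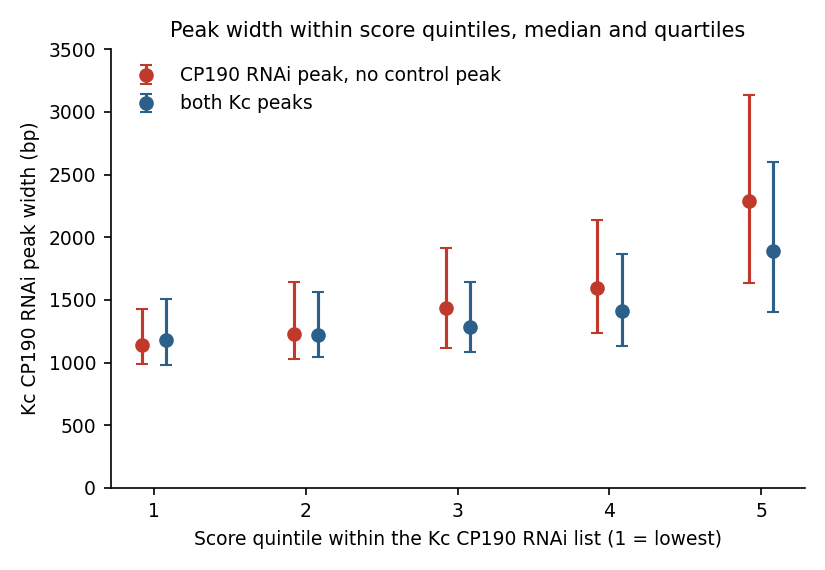
Width of the Kc CP190 RNAi peak (bp, vertical axis) by score quintile of that list (horizontal axis) for regions without a control peak and for regions with both Kc peaks. Points are medians and bars the quartiles; the medians are 1143 and 1180 bp in the lowest quintile and 2286 and 1888 bp in the highest.

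A few members were very wide, and not all of them were weak. Such widths were not particular to members. The 90th percentile and the maximum were 2450 and 8608 bp for members, against 2746 and 9998 bp for kept regions. The widest, at 3R 6206505 to 6215112, spanned 8608 bp with a score of 81.71, and a kept control site lay 1979 bp away. The second was the 3L site 37 bp from a control peak, with 8138 bp and a score of 55.56, and an S2 peak of 6763 bp lay inside it. The others among the 5 widest lay at 3R 4871917 to 4879370 (7454 bp), 3L 2107099 to 2113805 (6707 bp) and 3R 15935037 to 15940932 (5896 bp). Their scores of 148.61, 153.10 and 55.40 show that a broad member could be of low or of moderate rank.

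The S2 list is the measurement least tied to the choice of members, since it entered the rule only through the merging of peaks. It held a peak at 157 of the 656 members (23.9%, 20.7 to 27.4%). The merging lowered this share somewhat, since the 18 peaks it kept out were all joined to a control peak through an S2 peak. With regions merged from the Kc lists alone the share was 26.2%, and its difference from kept regions was -31.0 points. The background was 47.1% of all regions with a CP190 RNAi peak and 56.4% of all regions with a Kc peak. Kept regions had an S2 peak in 885 of 1554 cases (56.9%, 54.4 to 59.4%). Regions with a control peak and no CP190 RNAi peak had one in 919 of 1266 cases (72.6%, 70.0 to 75.0%). The 3 intervals do not overlap, and the share was lowest at the members and highest at the control sites that were not called after CP190 RNAi.

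The lower S2 share of members was seen at every score level. In the lowest score quintile 20.8% of members (15.7 to 26.6%) and 48.1% of kept regions (41.2 to 55.1%) had an S2 peak. In the fourth the shares were 32.9% (22.7 to 44.4%) and 53.7% (48.4 to 58.9%). In the highest, where 9 of 26 members had an S2 peak, they were 34.6% (17.2 to 55.7%) and 69.2% (64.5 to 73.5%). Averaged over the score quintiles with members as weights, the difference was -27.1 points (members minus kept regions), against -33.0 points without the split. It was -32.2 points within width quintiles and negative in all 5 of them. The arms gave like values, with an S2 peak at 21.9% of members on 2L (16.2 to 28.5%), 25.6% on 3L (19.8 to 32.0%) and 24.0% on 3R (18.9 to 29.7%). Depth and enrichment of the Kc libraries are not recorded, and their part in this result was not tested.

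**Figure D3:**
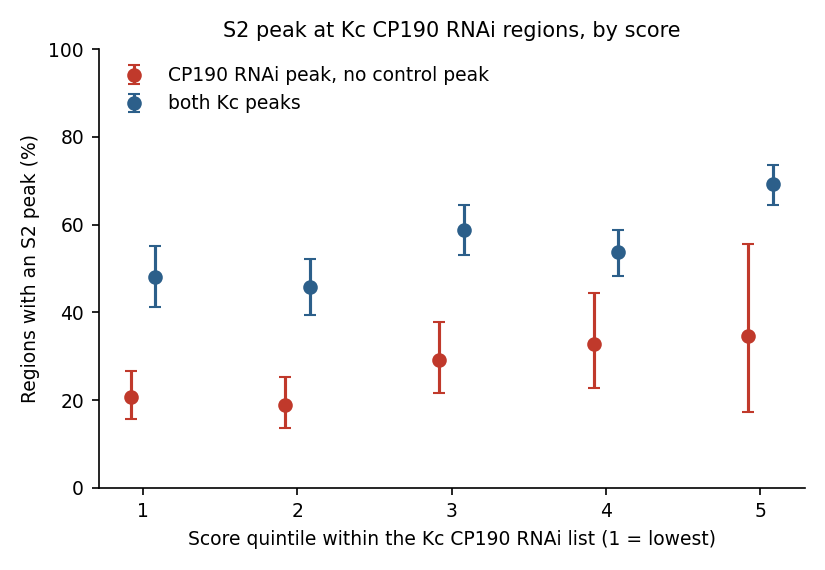
Share of regions with an S2 peak (percent, vertical axis) by score quintile of the Kc CP190 RNAi list (horizontal axis), for regions without a control peak and for regions with both Kc peaks. Points are shares and bars exact 95% binomial intervals; the members lie below the kept regions in each quintile, at 20.8% against 48.1% in the lowest and 34.6% against 69.2% in the highest.

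Where an S2 peak was present at a member, it was usually a weak one of the S2 list. Its median score percentile within that list was 32.8 (quartiles 14.3 and 53.1). At regions in all 3 lists the median was 59.0 (36.1 and 78.9), and at regions with control and S2 peaks but no CP190 RNAi peak it was 74.2 (53.5 and 88.8). Regions called in S2 alone had a median of 29.5 (13.8 and 48.1). The S2 peaks at members were thus closer in rank to those found in S2 alone than to those shared with the Kc control. Ranked within their list, 7 of the 157 S2 peaks fell in its top quintile by score (4.46%, 1.81 to 8.97%), against 205 of 885 at regions in all 3 lists (23.2%, 20.4 to 26.1%).

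The S2 peaks at members differed from S2-only peaks in width. Their median was 1553 bp (1157 and 2186 bp), against 1005 bp (848 and 1412 bp) for S2-only regions and 1765 bp (1288 and 2474 bp) for regions in all 3 lists. Overlap by position alone grows with width, and its part was not tested. In the highest decile of the S2 list there were 2 members. They lay at 2L 12454591 to 12455858, with an S2 score of 989.11 and a CP190 RNAi score of 102.01, and at 3R 3316673 to 3318941, with 805.22 and 95.83. Both were strong sites in S2 and middling ones in the Kc knockdown, and for both the nearest control peak, 9271 and 5125 bp away, was one with an S2 peak and no CP190 RNAi peak.

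**Figure D4:**
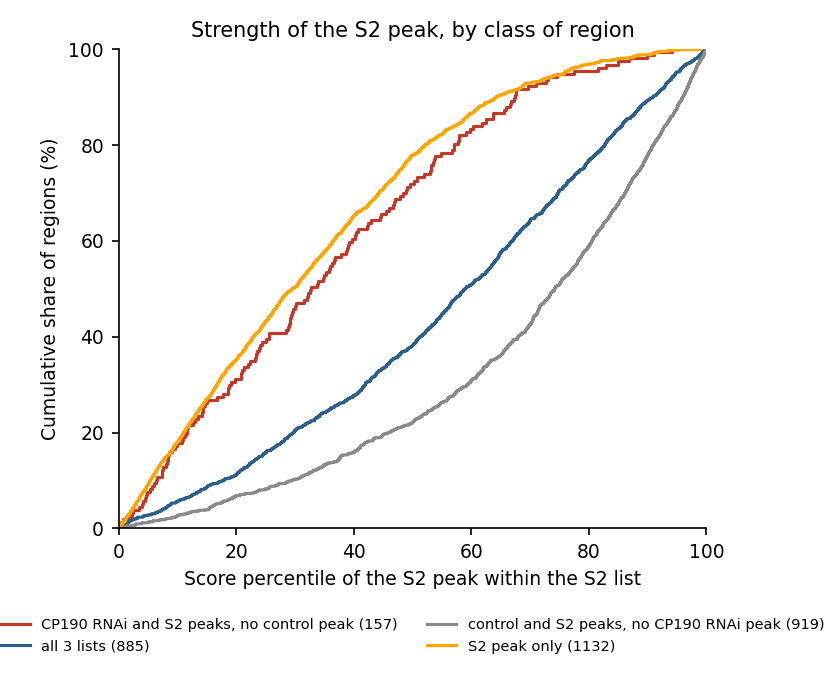
Cumulative share of regions (percent, vertical axis) by the score percentile of their S2 peak within the S2 list (horizontal axis), one line per class with its number of regions. The line of the 157 members lies beside that of regions called in S2 alone, with medians of 32.8 and 29.5, and above those of regions in all 3 lists (59.0) and of control and S2 regions (74.2).

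The shared positions were closely matched. At members the centres of the CP190 RNAi and S2 peaks were a median of 120 bp apart (quartiles 46 and 254 bp), and 117 of 157 lay within 250 bp (74.5%, 67.0 to 81.1%). At regions in all 3 lists the same pair of peaks had a median of 118 bp (42 and 320 bp). The S2 peak covered a median of 96.8% of the CP190 RNAi peak at members. In regions with both Kc peaks, the CP190 RNAi and control peaks were a median of 64 bp apart. An S2 overlap at a member was thus placed as closely as at a kept region.

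The 499 members without an S2 peak lay about as far from S2 peaks as kept regions without one. Their median distance to the nearest S2 peak was 7338 bp (quartiles 3069 and 15352 bp), against 7444 bp (3056 and 15936 bp) for the 669 kept regions without one. An S2 peak lay within 1 kb of 41 of them (8.22%, 5.96 to 11.0%) and of 55 of the kept regions (8.22%, 6.25 to 10.6%). Their median CP190 RNAi score was 77.3 (59.2 and 105), and that of members with an S2 peak was 86.2 (64.4 and 123). The widths of the 2 subgroups were 1238 bp (1028 and 1696 bp) and 1371 bp (1129 and 1811 bp). Both score and width overlapped widely between the subgroups.

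Members lay in the neighbourhood of control sites. The nearest control peak was a median of 5032 bp away (quartiles 2113 and 11334 bp), and the farthest was 115797 bp away. It was within 1 kb for 80 members (12.2%, 9.79 to 14.9%), within 5 kb for 327 (49.8%, 46.0 to 53.7%) and within 10 kb for 470 (71.6%, 68.0 to 75.1%). The share within 1 kb was 22.7% when a shared site needed 50% reciprocal overlap and 5.43% with all lists at a score of 100 or more. The subgroups with and without an S2 peak did not differ beyond counting error, with 50.3% (42.2 to 58.4%) and 49.7% (45.2 to 54.2%) within 5 kb. The reverse measure was smaller. Of the control regions without a CP190 RNAi peak, 24.2% had a CP190 RNAi peak within 5 kb (21.8 to 26.6%), with a list of fewer peaks to meet.

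A measure taken alike for all classes was the gap to the nearest other region that held a control peak. Its median was 4912 bp for members (95% interval of the median 4404 to 5531 bp) and 4900 bp for kept regions (4471 to 5265 bp). It was 7298 bp for control regions without a CP190 RNAi peak (6757 to 8019 bp) and 7872 bp for S2-only regions (7171 to 8789 bp). The medians of members and kept regions lay within each other's intervals, and both lay below those of the other 2 classes.

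**Figure D5:**
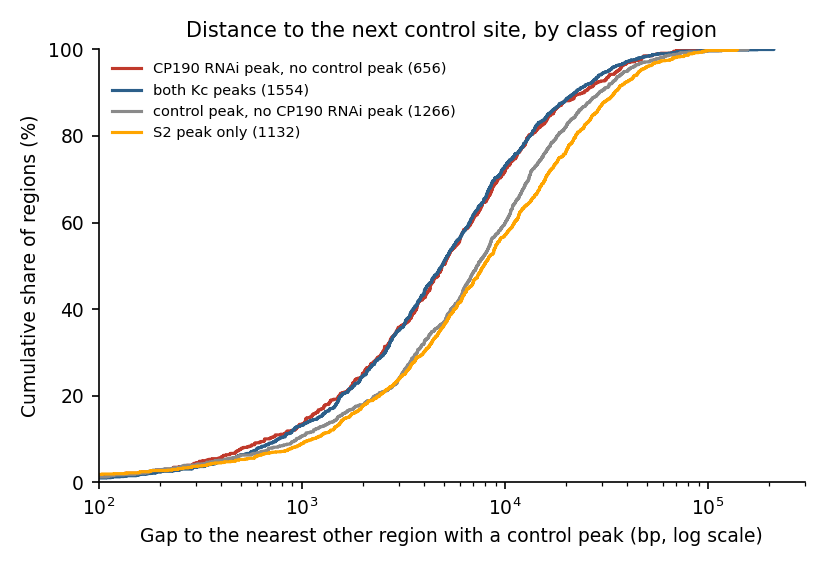
Cumulative share of regions (percent, vertical axis) by the gap to the nearest other region with a control peak (bp, log scale, horizontal axis, drawn from 100 bp), one line per class with its number of regions. The lines of the members and of regions with both Kc peaks run together, with medians of 4912 and 4900 bp, to the left of the other classes at 7298 and 7872 bp.

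The control site next to a member was more often a kept one. For 421 of the 656 members the nearest control region also held a CP190 RNAi peak (64.2%, 60.4 to 67.9%), and for 235 it did not. Among all 2820 control regions 1554 held one (55.1%, 53.2 to 57.0%). Control regions with an S2 peak and no CP190 RNAi peak were 32.6% of all control regions and the nearest to 21.6% of members (18.6 to 25.0%). Among the 80 members within 1 kb of a control peak, 11 were next to such a region and 57 next to a kept one. How densely each class is packed moves with this count, and its part was not tested.

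Some members lay beside each other. The next union region on the arm was a member for 128 of 655 members (19.5%, 16.6 to 22.8%), against 14.2% over all union regions, 16.4% after kept regions (14.6 to 18.4%), 11.0% after control regions without a CP190 RNAi peak (9.31 to 12.8%) and 11.8% after S2-only regions (10.0 to 13.9%). The intervals of members and kept regions overlap. The share after members was 8.29% with CP190 RNAi peaks at a score of 100 or more and 30.4% with lists of equal length, which was 3.45 and 6.69 points above the share over all regions in the same setting. In all, 234 members (35.7%) stood in 106 runs of 2 or more, and the longest runs held 4. Runs were not counted for the other classes, so this share has no background and is a description only.

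There were 3 such runs, all on 3R. The run from 2892064 to 2908667 spanned 16.6 kb, and its 4 members had scores of 119.93, 196.82, 100.26 and 143.70 in order along the arm. The second and the last of them had an S2 peak, with S2 scores of 621.29 and 133.98. The runs from 17681463 to 17701414 and from 25570213 to 25629499 consisted of weak peaks, with scores of 62.36 to 76.98 and 59.18 to 77.77. They held 1 and 0 members with an S2 peak.

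None of the 3 arms stood out. Members were 187 of 630 CP190 RNAi regions on 2L (29.7%, 26.1 to 33.4%), 211 of 701 on 3L (30.1%, 26.7 to 33.6%) and 258 of 879 on 3R (29.4%, 26.4 to 32.5%). In the 1 Mb next to the centromeric ends they were 15 of 51 (29.4%, 17.5 to 43.8%), and outside it 641 of 2159 (29.7%, 27.8 to 31.7%). The sign of this small difference changed under 4 of 6 alternatives. With lists of equal length the share in the centromeric Mb was 49.0% (34.8 to 63.4%). Over all regions with a CP190 RNAi peak it was 41.4% in that setting. Of 77 windows of 1 Mb with a CP190 RNAi region, 75 held a member, with a median of 9. The fullest window was the first Mb of 2L, with 19 members among 39 regions (48.7%, 32.4 to 65.2%). Of these members 5 had an S2 peak. The window was picked as the fullest of 77, and its interval makes no allowance for that choice. The next fullest were 2L 10000001 to 11000000 with 18 of 62 and 3L 8000001 to 9000000 with 18 of 47. The 2 windows without a member were the last on 3L, with 6 and 3 regions, too few to set them apart.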

How the data were processed

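Gcn5 ChIP-seq was done on chromatin crosslinked with 1% formaldehyde, with 5 µg of a rabbit polyclonal antibody, per the labels' protocols. Per the submitters' processing notes reads were placed on build dm3, and Bowtie, MACS, bedtools and HOMER are named. Roles, versions, peak threshold and the use of inputs are not stated in the sources at hand. The deposited score of each peak is the authors' own, on a scale that is not stated. Of 6 samples, 3 are inputs and were not analysed here. Groups came from sample titles.

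Prefixes of sequence names were removed and peaks merged with Python 3.11.15 and pandas 2.3.3. A region took the score of its strongest and the width of its widest peak of a list. Quintiles used the CP190 RNAi peaks on the arms. Intervals are exact Clopper-Pearson (scipy 1.17.1), and intervals of medians use binomial order statistics. The merging was tested on simulated data in which added peaks lay well apart from control peaks. Near misses and joining through an S2 peak could not occur there and were not tried. Named sites were the 10 strongest members with and without an S2 peak, the 5 widest, the 3 nearest to the limit on each side, up to 5 with an S2 peak in its list's highest decile, and the longest runs and fullest windows. Members, lists and measures were chosen with earlier results of these data known.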

Additional observations from a re-analysis of the deposited data

How the results depend on the processing

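The S2 share of members stayed below that of kept regions under all 6 alternatives, with differences of -34.6 to -27.0 points. With CP190 RNAi peaks at a score of 100 or more there were 206 members, 16.5% of the regions, with an S2 share of 30.6%, a median score of 129, a median width of 1571 bp and 8.29% followed by a member. Their width minus that of kept regions turned to 20.0 bp. With all lists at that score the members were 36.6%, with an S2 share of 20.4%, a median score of 138, a width of 1475 bp and 5.43% within 1 kb of a control peak. Lists of equal length gave 41.4%, with an S2 share of 16.9%, a median score of 83.9, 8.71% within 1 kb and 30.4% followed by a member. In that setting members were 49.0% of the CP190 RNAi regions in the centromeric Mb (34.8 to 63.4%). A 50% reciprocal overlap gave 33.4%, with an S2 share of 29.4% and 22.7% within 1 kb. Merging across gaps of up to 1000 bp gave 26.7%.

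The centromeric Mb minus the rest was -0.278 points and turned to 0.0104 with regions from the Kc lists alone, 13.9 and 6.93 with the score threshold on the CP190 RNAi list and on all lists, and 7.79 with equal lengths. The median S2 percentile kept within its interval under all 6. The share followed by a member was not run for reciprocal overlap and Kc-only merging, nor the 1 kb share for merging across gaps, which is 0 by construction. Read depth is unknown and limits every count. No paired analysis was possible because there was 1 library for each condition.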
